A study of Mus musculus with 4 samples.

Results

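The genes described here are those of calcitonin gene-related peptide (CGRP), adrenomedullin and their shared receptor, measured in cultured mouse aortic vascular smooth muscle cells given prostaglandin E2 (PGE2). The 7 members, Calca, Calcb, Adm, Calcrl, Ramp1, Ramp2 and Ramp3, were found by gene symbol in the authors' series table. They are 7 of 27306 symbols and have 12 of the 56605 probes. The set was chosen by the measured difference between PGE2 and control, which was largest in Calca and was in view when the genes were picked, so members' differences are given as a description and without a p-value. The groups were 2 cultures given PGE2 for 24 h and 2 control cultures left untreated for 24 h, each on 1 single-colour Agilent array. All 4 were grown from explants of adult aorta and carry the C57BL/6J strain and EP4-Tg genotype labels, so the controls have the transgene too. EP4 is a PGE2 receptor that couples to Gs. The promoter that drives the transgene, the dose of PGE2 and the number of mice behind a culture are not given in the sources used here.

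CGRP and adrenomedullin are vasodilator peptides that act through the same G-protein-coupled receptor, the calcitonin receptor-like receptor encoded by Calcrl. That receptor reaches the cell surface only with a receptor activity-modifying protein (RAMP), and the RAMP sets which peptide it binds best. With the product of Ramp1 it is the CGRP receptor, and with those of Ramp2 or Ramp3 it is an adrenomedullin receptor. Both forms signal through Gs and cyclic AMP, as EP4 does. CGRP is best known from sensory nerves around arteries, while adrenomedullin is made by vascular cells themselves.

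Promoter windows are shown because CREB, a factor activated through cyclic AMP, binds the cyclic AMP response element (CRE). RefSeq's table for build GRCm38.p6 gave a window of 250 bases before to 50 after the start for 5 of the 7 members. The full CRE, TGACGTCA, was in 0 of the 5 and in 1.79% of all 32851 windows. The half-site TGACG, searched on both strands and part of every full CRE, was in 2 of the 5 and in 20.8% of all windows. In Calca it begins at position -65 on the gene's strand, and in Ramp1 it lies on the opposite strand, 10 bases after the start. The 4 windows below belong to the tested members with the widest range over the arrays, with the half-site in capitals. They lie at chr7:114636308-114636607 on the minus strand for Calca, and on the plus strand at chr1:91179572-91179871 for Ramp1, chr11:6658283-6658582 for Ramp3 and chr7:110627407-110627706 for Adm. A match describes letters only.
Calca: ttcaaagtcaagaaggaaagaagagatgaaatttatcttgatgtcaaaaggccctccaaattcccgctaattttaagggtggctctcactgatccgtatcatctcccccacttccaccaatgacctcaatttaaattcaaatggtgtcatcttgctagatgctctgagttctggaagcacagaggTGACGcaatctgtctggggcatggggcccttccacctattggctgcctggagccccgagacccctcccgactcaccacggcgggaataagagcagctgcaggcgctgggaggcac
Ramp1: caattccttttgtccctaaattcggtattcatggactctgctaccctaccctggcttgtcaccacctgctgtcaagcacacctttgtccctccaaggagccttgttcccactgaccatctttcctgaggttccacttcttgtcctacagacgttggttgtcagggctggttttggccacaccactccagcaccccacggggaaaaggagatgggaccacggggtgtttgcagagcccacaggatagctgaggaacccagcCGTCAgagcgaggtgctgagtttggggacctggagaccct
Ramp3: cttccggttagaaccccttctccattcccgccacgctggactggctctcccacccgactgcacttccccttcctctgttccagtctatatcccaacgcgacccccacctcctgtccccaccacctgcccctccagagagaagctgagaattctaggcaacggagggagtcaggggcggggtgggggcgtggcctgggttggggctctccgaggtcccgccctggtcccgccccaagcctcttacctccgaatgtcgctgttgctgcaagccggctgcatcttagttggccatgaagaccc
Adm: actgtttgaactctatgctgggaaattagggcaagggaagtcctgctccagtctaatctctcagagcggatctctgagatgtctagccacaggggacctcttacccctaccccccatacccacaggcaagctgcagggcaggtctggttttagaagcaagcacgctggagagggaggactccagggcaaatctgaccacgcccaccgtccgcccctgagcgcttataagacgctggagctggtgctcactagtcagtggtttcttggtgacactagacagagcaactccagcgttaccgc

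The scanner software flagged 47.9% to 53.8% of each array's non-control spots as well above background. Levels are processed intensities, log2 values are relative to each array's 75th percentile, and differences are PGE2 minus control with the standard error (SE) of a limma fit over 17660 tested genes (n = 2 arrays per group). The smooth muscle genes Acta2, Tagln, Cnn1 and Smtn were well above background on all 4 arrays, while Myocd was on none, Des and Lmod1 on 1 and Myh11 on 2. The summed level of the 8 smooth muscle markers, relative to the 75th percentile, was 129 and 173 on the PGE2 arrays and 714 and 407 on the control arrays. Tagln was the largest part of it on PGE2 1 and Acta2 on the other arrays. Cnn1 stood at -2.26, Acta2 at -2.10, Tagln at -1.79 and Smtn at -0.33, none past the adjusted threshold in limma. The 5 fibroblast markers summed to 22.9 and 25.2 on the PGE2 arrays and 201 and 90.5 on the control arrays, mostly from Dcn. Of those tested, Dcn stood at -2.91 and Lum at -2.17, but Pi16 at 2.78 and Pdgfra at 0.60, none past the adjusted threshold in limma, and Dpt was on no array. The 6 immune markers summed to 58.2 and 38.9 on the PGE2 arrays and 75.5 and 62.3 on the control arrays, mostly from Itgam. Itgam stood at -0.61 and Ptprc at -0.36, but Cd68 at 2.09 and Csf1r at 0.98, none past that threshold, and Adgre1 and Lyz2 were on no array. The part of these genes' cells in the values below was not tested.

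Of the 12 probes, 4 were well above background on all arrays, 2 for Ramp3 and 2 for Ramp1, and 3 were on none. Probes entered the fit when both PGE2 arrays, or both control arrays, were well above background, which held for 7 probes of 5 members and left Calcb and Calcrl untested. A probe kept through 1 group alone was kept for its level there, so these 5 do not stand for all 7. Calca was the 1 member past the adjusted threshold, as 0.668% of tested genes were, with 0.396% higher and 0.272% lower. It was not past it with the authors' scaled signal, with no filter on dim probes, or without either control array, settings in which 0 genes passed. Both PGE2 arrays lay above both control arrays in Calca and Ramp3, as in 24.0% of tested genes, and below both in Adm and Ramp2, as in 28.3%. Nothing is read from these counts, since this contrast was in view when the set was chosen.

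**Figure D1:**
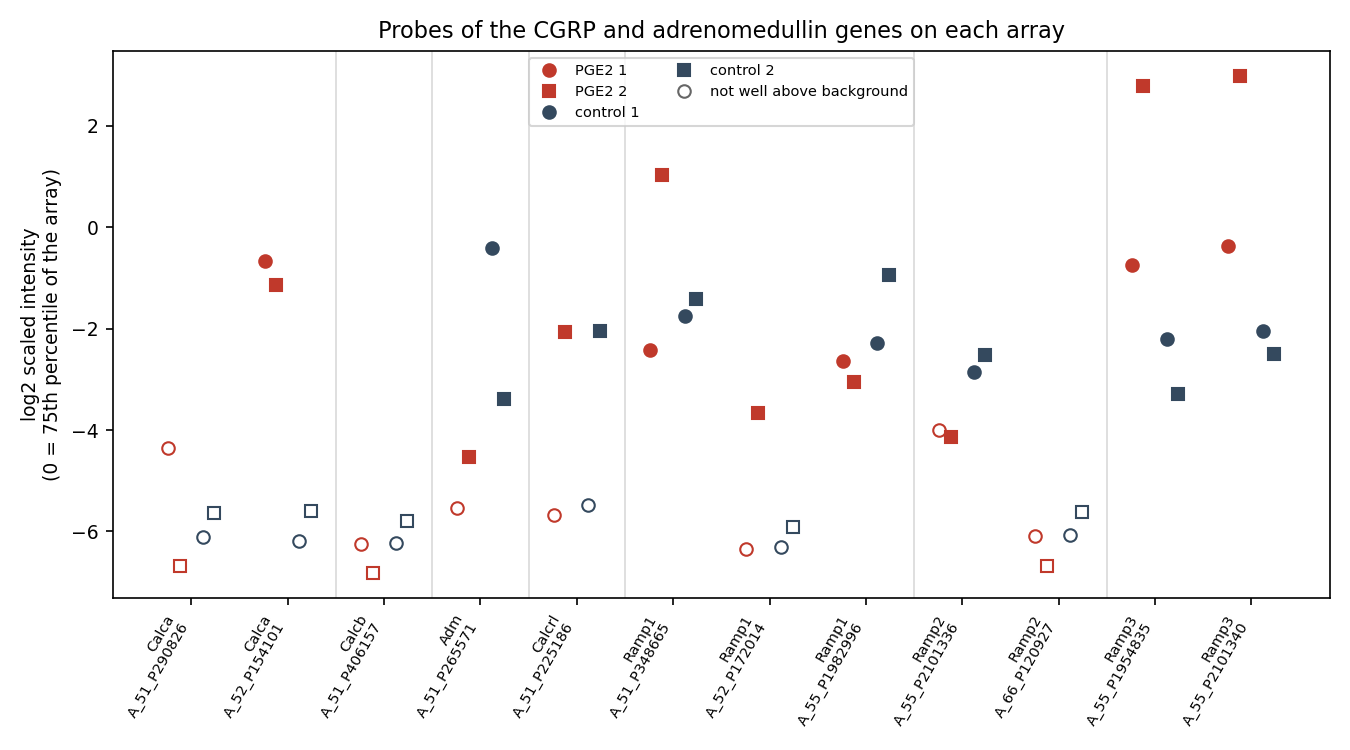
Log2 intensity of each of the 12 probes on each array, relative to the array's 75th percentile, for PGE2 and control arrays, with open symbols where the probe was not well above background. The Calca probe A_52_P154101 is well above background on the PGE2 arrays only, both Ramp3 probes are highest on PGE2 2, and Calcrl is well above background on PGE2 2 and control 2 only.

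Among the ligands, Calca was detected with PGE2 only. Calca (gene ID 12310, cytoband 7qF1) encodes both calcitonin and alpha CGRP, which arise by alternative splicing. Its probe A_52_P154101, annotated to transcript variant 2, read 381 and 282 on the PGE2 arrays, against 6.997 and 12.36 on the control arrays. Both PGE2 values were well above background and neither control value was. Even the lower PGE2 value lay at least 2.48 on the log2 scale above the control arrays' floors. With each control array at that floor, its dimmest signal well above background, Calca was at least 7.59-fold higher with PGE2. A probe can read above the floor without the flag, as Ramp2 did on PGE2 1, so bounds from floors are approximate. Calca entered the fit through the PGE2 arrays alone, so its higher direction is tied to the filter. The fitted difference, which uses control signals not well above background, was 4.99 ± 0.30 (SE). It was 2.32 with normexp background correction and quantile normalization. In bulk RNA such as this, a change in the number of cells of a type and a change in RNA per cell cannot be told apart.

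The second Calca probe did not share this pattern. A_51_P290826, annotated to transcript variant 1, read 29.3 and 6.05 on the PGE2 arrays, against 7.41 and 12.04 on the control arrays, none of them well above background. Which exons the 2 probes read was not used here, so no splicing ratio can be taken from them. The lone Calcb probe, A_51_P406157 (gene ID 116903, 7qF1), for the gene of beta CGRP, read 7.95 and 5.54 on the PGE2 arrays, against 6.77 and 10.8 on the control arrays. None of these was well above background, so no difference in Calcb was detectable.

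Because CGRP is known from sensory neurons, 7 markers of those cells were read beside Calca. The neuronal tubulin gene Tubb3 read higher with PGE2, at 3956 and 4323 on the PGE2 arrays, against 741 and 846 on the control arrays. Its difference was 2.23 ± 0.15 (adjusted p = 0.0438, limma). Like Calca, Tubb3 was not past the adjusted threshold with the authors' scaled signal or with no filter on dim probes, where no gene passed. The peripherin gene Prph was well above background on the control arrays only, where it was at least 2.2-fold higher (adjusted p = 0.137, limma). It entered the fit through those arrays alone, and that p uses PGE2 signals not well above background. The nociceptor sodium channel gene Scn10a and the neurofilament gene Nefl were well above background on no array, and Tac1 and Elavl4 on 1. The summed level of the 7 was 6.92 and 7.07 on the PGE2 arrays and 1.86 and 1.71 on the control arrays, with Tubb3 the largest part on each. Their part in the Calca values was not tested.

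Adm read lower with PGE2, where it lay near or below the arrays' floors, and its level differed widely between the control cultures. Adm (gene ID 11535, 7qF1) encodes the precursor of adrenomedullin. Its probe, A_51_P265571, read 13.0 and 26.9 on the PGE2 arrays, against 381 and 57.0 on the control arrays, and was not well above background on PGE2 1. Both PGE2 values lay below both control values, while control 1 stood far above control 2. The fitted difference was -3.13 ± 1.1 (SE) and uses the PGE2 1 signal, which was not well above background. Adm entered the fit through the control arrays alone, so its lower direction is tied to the filter. The nearest PGE2 and control values differed by -1.14 on the log2 scale. They lay just above their arrays' floors, at -4.53 against -4.63 on PGE2 2 and -3.39 against -3.63 on control 2. How far the floors shape that gap was not tested. The fitted difference was -1.64 without control 1 and -1.56 with normexp and quantile normalization. The gap between the control arrays, -2.98 for control 2 minus control 1, was matched in size by 0.595% of tested genes.

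**Figure D2:**
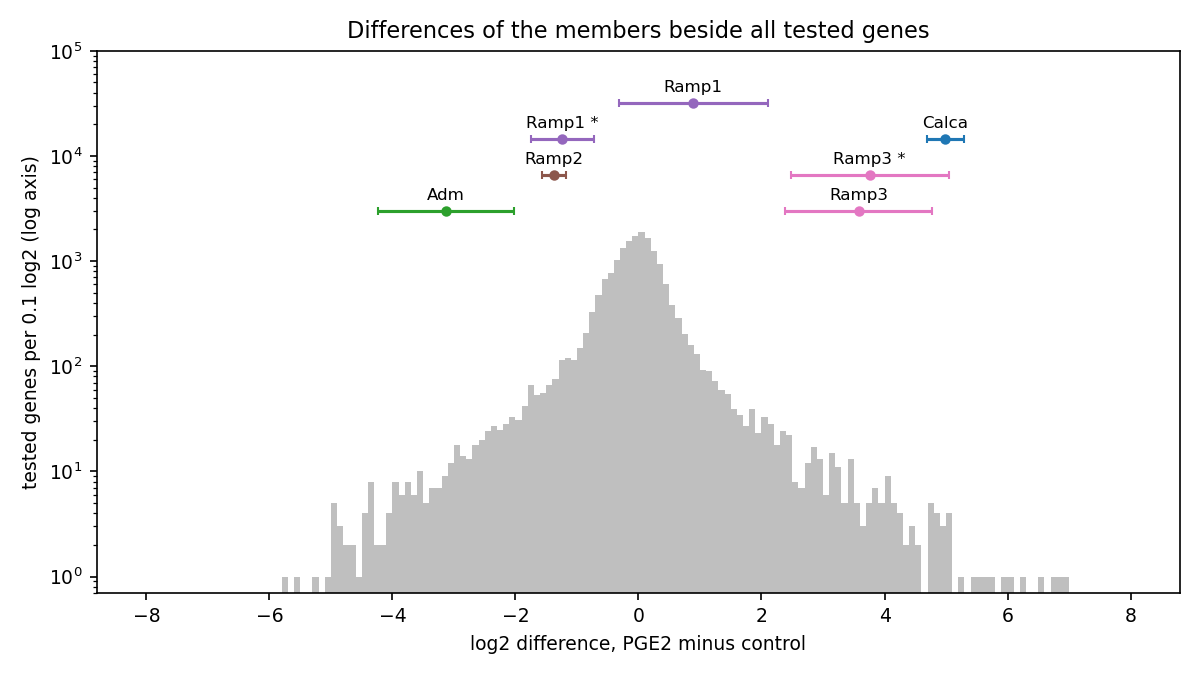
Log2 differences (PGE2 minus control, points, with SE bars) of the 7 kept probes beside the distribution over all 17660 tested genes, where an asterisk marks a gene's second, dimmer kept probe. Calca lies at 4.99, the Ramp3 probes at 3.58 and 3.76 with wider bars, Ramp2 at -1.38 and Adm at -3.13, and the 2 Ramp1 probes fall on opposite sides of 0.

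The receptor gene did not separate by treatment. The lone Calcrl probe, A_51_P225186 (gene ID 54598, 2qD), read 11.8 and 149 on the PGE2 arrays, against 11.4 and 146 on the control arrays. It was well above background on PGE2 2 and control 2 and on neither of the others, so it was not tested. The bright arrays, 1 of each group, had nearly equal levels, and the dim ones were not well above background. Against the floor of the dim array, PGE2 2 was at least 4.02-fold higher than PGE2 1, and control 2 at least 3.97-fold higher than control 1.

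Ramp1, which encodes the RAMP of the CGRP receptor (gene ID 51801, 1qD), gave opposite signs on its kept probes. The brighter, A_51_P348665, annotated to transcript variant 1, read 113 and 1283 on the PGE2 arrays, against 151 and 226 on the control arrays. PGE2 1 was below both control arrays and PGE2 2 above both, so the groups overlapped. The difference was 0.89 ± 1.21 (SE), smaller than its error, and it was -0.83 without PGE2 2 and 2.62 without PGE2 1. A_52_P172014, of the same variant, read 7.41 and 49.5 on the PGE2 arrays, against 6.40 and 9.92 on the control arrays, and was well above background on PGE2 2 alone. On both of these probes PGE2 2 was the bright array. A_55_P1982996, annotated to transcript variant 3, read 96.7 and 74.8 on the PGE2 arrays, against 104 and 311 on the control arrays. There both PGE2 values were below both control values, with a difference of -1.24 ± 0.51 (SE). The mean of the kept probes gave -0.17 for Ramp1, so no single direction holds for this gene.

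Ramp2, which encodes an adrenomedullin receptor RAMP, read lower with PGE2 on its kept probe. Its probe A_55_P2101336 (gene ID 54409, 11qD) read 37.6 and 35.2 on the PGE2 arrays, against 70.2 and 104 on the control arrays. Both PGE2 values lay below both control values, and PGE2 1 was not well above background. The PGE2 readings lay little above their arrays' floors of 35.7 and 25.2. The gap was -0.15 between the PGE2 arrays and 0.33 between the control arrays, matched in size by 60.8% and 42.2% of tested genes. The difference was -1.38 ± 0.20 (SE), and it was -0.52 with normexp and quantile normalization. Ramp2 entered the fit through the control arrays alone, so its lower direction is tied to the filter. A second probe, A_66_P120927, read 8.88 and 6.04 on the PGE2 arrays, against 7.61 and 12.2 on the control arrays, none of them well above background. Ramp2 and Calcrl are known from endothelium, where 8 markers summed to 0.206 and 0.302 on the PGE2 arrays and 0.492 and 0.263 on the control arrays. Of these Pecam1 was well above background on all arrays, Cdh5, Kdr and Vwf on 1, and Tek, Cldn5, Emcn and Tie1 on none, and their part in the Ramp2 and Calcrl values was not tested.

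Ramp3 was higher with PGE2 on both of its probes, and far higher in 1 of the 2 cultures. Ramp3 (gene ID 56089, 11qA1) encodes the RAMP of the other adrenomedullin receptor. The brighter probe, A_55_P2101340, read 463 and 4966 on the PGE2 arrays, against 123 and 106 on the control arrays. The second, A_55_P1954835, read 358 and 4292 on the PGE2 arrays, against 111 and 61.3 on the control arrays. All 8 values were well above background, and both PGE2 values exceeded both control values on each probe. The difference was 3.58 ± 1.19 (SE) on the brighter probe and 3.76 ± 1.28 on the other. Its size rested on PGE2 2, which was 10.3 times PGE2 1 on the brighter probe after scaling, a gap that 0.442% of tested genes matched. The difference was 1.89 without PGE2 2 and 5.27 without PGE2 1.

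**Figure D3:**
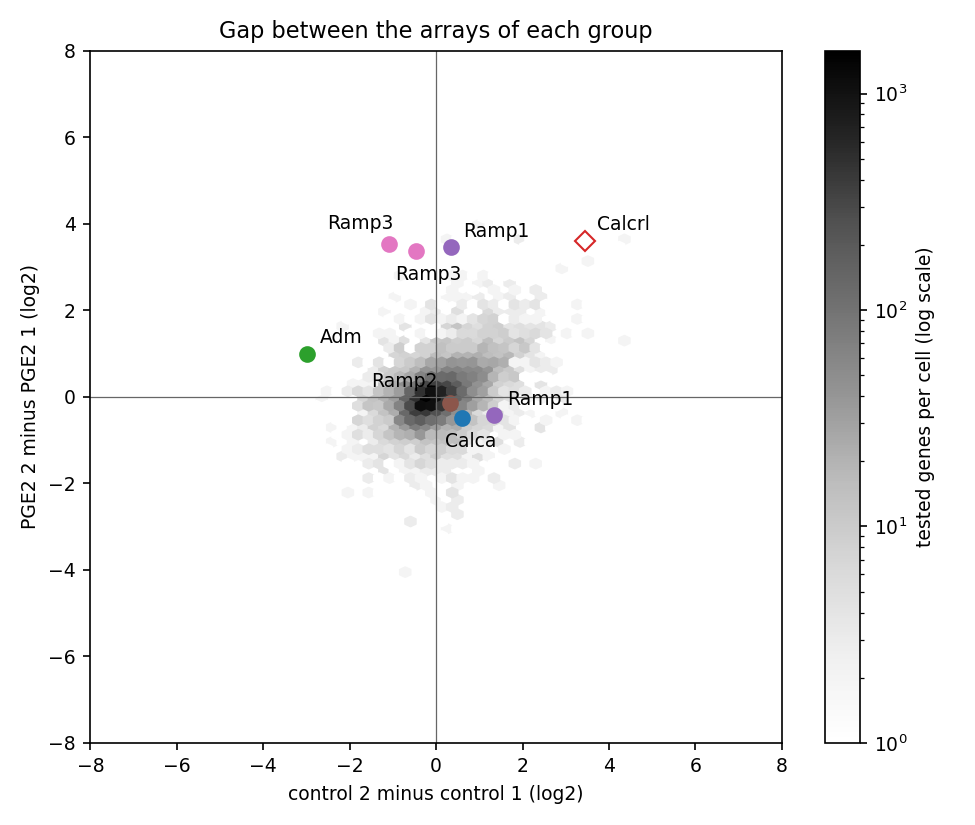
Gap between the arrays of each group on the log2 scale, for PGE2 2 minus PGE2 1 and for control 2 minus control 1, over all tested genes and the 7 kept probes, with Calcrl, which was not tested, as an open diamond. Calcrl is large on both axes, with its dim arrays not well above background. Ramp3 and 1 Ramp1 probe are large on the PGE2 axis, and Adm on the control axis.

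The members did not share a pattern over the arrays. Ramp3 and the brighter Ramp1 probe were highest on PGE2 2, by 3.37 and 3.45 on the log2 scale over PGE2 1, where the median absolute gap over tested genes was 0.197. Calca had a gap of -0.49 between the same arrays, which 19.2% of tested genes matched in size. Adm had the widest gap between control arrays among tested members, where the median absolute gap was 0.279.

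By Euclidean distance over the 4 arrays between log2 profiles, each centred on its own mean, the genes most like Calca were Kcng4, Traf3ip3, Ucp3, Ucp2 and Try5, at 0.147, 0.34, 0.371, 0.384 and 0.463. Kcng4 encodes a potassium channel subunit, Ucp2 and Ucp3 mitochondrial carriers, and Try5 a trypsin. Kcng4, Traf3ip3 and Try5 were, like Calca, well above background on the PGE2 arrays only. All 5 distances therefore rest in part on control signals not well above background, and their order is uncertain. Ucp2 was well above background on all arrays, at log2 levels of 4.25 and 3.28 on the PGE2 arrays and -1.32 and -0.92 on the control arrays. Ucp3 is a paralog of Ucp2, and whether its probe also reads Ucp2 was not tested.

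Other genes of the pathway were read in 4 lists of 39 genes, 24 of them tested. The adjusted threshold was passed by 0 of the 24 in the limma fit. At an unadjusted p under 0.05, 1 was higher with PGE2 and 4 were lower, where 17.8% of all tested genes passed in either direction. Calcr, Vipr1 and the peptide processing gene Pcsk1, all among the lower genes, entered the fit through the control arrays alone. Their lower direction is tied to the filter. Pcsk1 is named after its values were seen. The median difference of the 24 was -0.03, as it was over all tested genes. Of 6 other ligands and receptors of the family, 3 were tested. Ackr3, a scavenger receptor that also takes up adrenomedullin, read 16940 and 15760 on the PGE2 arrays, against 3033 and 8707 on the control arrays. Its groups did not overlap, at 1.52 ± 0.47 (adjusted p = 0.238, limma). Crcp, which encodes a component of the CGRP receptor complex, stood at -0.14 ± 0.16 (adjusted p = 0.686, limma). Calcr, the calcitonin receptor gene, is named after its values were seen, and read 8.26 and 5.53 on the PGE2 arrays, against 37.2 and 497 on the control arrays. It was well above background on the control arrays only, and was lower with PGE2 by at least 5.03-fold (adjusted p = 0.206 in limma). That p uses PGE2 signals not well above background. The bound rested on control 2, and was 1.49-fold without it and 17-fold without control 1.

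Among 11 genes of peptide processing and breakdown, 10 were tested, with a median of -0.21. Of those well above background on all 4 arrays, the proprotein convertase gene Pcsk6 stood at -1.74 ± 0.82 (adjusted p = 0.365, limma). The neprilysin gene Mme, of a peptide-degrading enzyme, stood at -0.56 ± 0.42 (adjusted p = 0.541, limma), and Ece1, the endothelin-converting enzyme gene, at 0.43 ± 0.23 (adjusted p = 0.407, limma). All 8 genes of receptor coupling and trafficking were tested, with a median of 0.05. The receptor kinase genes Grk5 and Grk2 stood at -0.46 ± 0.51 and 0.11 ± 0.17, and the beta-arrestin gene Arrb2 at 0.21 ± 0.18.

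Of 14 other Gs-coupled receptors and ligands, 3 were tested and 8 were well above background on no array. The parathyroid hormone receptor gene Pth1r read 77.8 and 94.1 on the PGE2 arrays, against 247 and 291 on the control arrays. Its groups did not overlap, and its difference of -1.80 ± 0.17 missed the threshold (adjusted p = 0.0509, limma). The VIP receptor gene Vipr1 is named after its values were seen. It was well above background on the control arrays only, and was lower with PGE2 by at least 2.61-fold (adjusted p = 0.0595 in limma). Its direction is tied to the filter, and that p uses PGE2 signals not well above background.

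**Figure D4:**
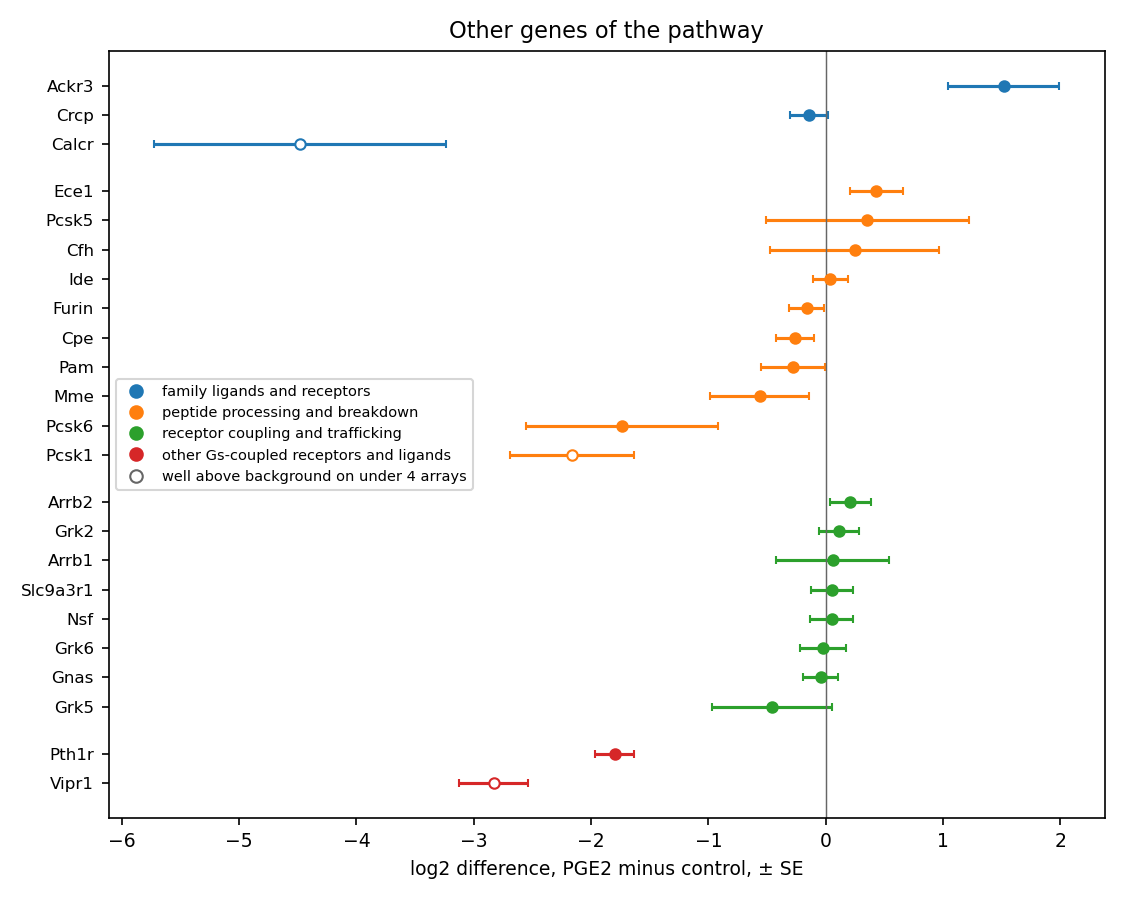
Log2 difference (PGE2 minus control, points, with SE bars) of 23 of the 24 tested genes of the 4 pathway lists, with open symbols for probes well above background on under 4 arrays. The coupling and trafficking genes lie within 0.46 of 0. The open points, those of Calcr and Vipr1 among them, rest wholly or partly on PGE2 signals not well above background.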

How the data were processed

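Each deposited scanner file gives the intensity of every spot, background-corrected by Agilent Feature Extraction, of version 11.5.1.1 per the file headers and version 12.0.3.1 per the submitters' processing notes. The array was design 074809. A scaled signal is given in the deposited table of the whole series, the processed intensity multiplied by a constant for each array (0.945 to 1.07), and gave the gene symbols. Its scale, centring and direction are therefore those of the scanner values, and its column medians are 39.9 for PGE2 1, 40.5 for PGE2 2, 32.7 for control 1 and 42.9 for control 2. That file's 4 detection columns were not used. No spot was saturated and all arrays share 1 slide and 1 scan identifier, so no batch could be tested. The labels describe biological replicates.

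Groups were assigned from the sample titles. Control spots and outlier-flagged spots were left out (158 probes lost), spots of 1 probe were averaged, and log2 processed intensities were set relative to the 75th percentile over non-control spots of the array. A filter kept the 26100 probes that both PGE2 arrays, or both control arrays, had well above background, and each gene was represented by its brightest kept probe, which gave 17660 tested genes or unnamed probes. Limma 3.58.1 in R 4.3.3 compared PGE2 with control, with 2 residual degrees of freedom (prior 2.15), and with Benjamini-Hochberg adjustment over all tested genes at a threshold of 0.05. The standard error of a second probe came from the same model over all kept probes. Taking the percentile over spots, and leaving out flagged spots rather than whole probes, was settled after the counts under the other choices had been seen, to follow earlier processing of these data. With 2 arrays per group, the number of arrays limits the precision. Steps were tested on simulated data.

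Gene symbols were updated through the gene ID from RefSeq's table of assembly GRCm38.p6 (44970 of 47700 spots with a symbol matched), and promoter sequences are RefSeq's of that build. The members and lists were chosen with earlier results of these data known. The rule for named genes took all members and all their probes, every called gene of 4 pathway lists, up to 3 genes per list with the largest difference among those well above background on all 4 arrays, and the 5 genes most like the member with the largest difference. Alternatives were quantile normalization, median centring, normexp with an offset of 50 (run on median spot intensities in place of the planned means) with quantile normalization, the authors' scaled signal, other filters, the mean of probes, a block for the replicate number, a percentile over probes, leaving out every probe with a flagged spot, and leaving out each array. Single values of 2 listed genes are not reported here.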

Additional observations from a re-analysis of the deposited data

How the results depend on the processing

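The limit of these data is their size, 2 arrays per group, and the many levels near background. Leaving out 1 array leaves 1 in its group, which is assumed to vary like the others. In the limma fit 70 genes were called higher and 48 lower with PGE2, and 1 member, Calca. Leaving out each array in turn gave 0 to 98 genes higher, 0 to 76 lower, 0 to 2 members (Calca and Ramp3 without PGE2 1) and 0 to 0 pathway genes. Without control 1 or control 2 no gene was called, while 2710 and 2963 had an unadjusted p under 0.05. Over these fits the log2 difference was 4.70 to 5.28 for Calca, -0.83 to 2.62 for Ramp1, -1.55 to -1.22 for Ramp2, 1.89 to 5.27 for Ramp3 and -4.62 to -1.64 for Adm.

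The authors' scaled signal gave 0 genes higher, 0 lower and 0 members (4203 at an unadjusted p under 0.05), with a median difference over all genes of 0.231 and -1.12 for Ramp2. No filter on dim probes gave 0, 0 and 0 (2685 at an unadjusted p under 0.05). Keeping only probes well above background on all 4 arrays gave 39 higher, 15 lower and 0 members, and leaves out Calca by its construction. Normexp with quantile normalization gave 2.32 for Calca, -0.52 for Ramp2 and -1.56 for Adm. Median centring and the mean of kept probes each called 1 pathway gene, Pth1r, and the mean of probes put Ramp1 at -0.17. In settings chosen after seeing the data, a percentile over probes gave 94 higher, 77 lower and 2 pathway genes, Pth1r and Vipr1, and leaving out every probe with a flagged spot gave 70 and 48. Where no value shows the cause of a change, the cause was not tested.

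The labels do not say that equal array numbers mark a shared culture or day, so the numbers were not used as pairs. Deviations of same-numbered arrays from their group means had a correlation of 0.424 over tested genes. With the replicate number as a block 88 genes were called higher, 84 lower, and 1 pathway gene, Vipr1, and Calca remained the 1 member called.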
